A study of Mus musculus with 6 samples.

Results

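The genes described here are 37 genes of the endothelium of the liver, which lines its sinusoids and its larger vessels. The list was given by name, and each gene was read from array probe sets annotated with exactly 1 gene symbol, using the probe set with the highest mean over all 6 arrays. All 37 were measured, of 19938 genes with such a probe set, and none was lost to a filter, since no filter on signal was applied. The genes were described in 3 groups: 13 sinusoidal genes, 16 genes of endothelium in general (pan-endothelial) and 8 genes of large vessels and capillaries. This grouping follows textbook knowledge, and several of the genes are found in more than 1 kind of vessel.

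Hepatic tissue was compared between 3 ARSB-null and 3 control mice, with 1 array per liver. The ARSB-null mice were homozygous for loss of arylsulfatase B (ARSB), a lysosomal enzyme that desulfates dermatan sulfate and chondroitin 4-sulfate, and came from a colony bred for this genotype from purchased heterozygous animals. The control mice were C57BL/6J. All mice of both groups were untreated males, 12 weeks of age, on the C57BL/6J background. Whether the controls came from the same litters is not given in the sources read here, so genotype and colony cannot be told apart. In whole liver, fewer endothelial cells and less of an mRNA per cell cannot be told apart either.

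Sinusoidal endothelial cells form a lining with pores and without a continuous basement membrane. They take up waste molecules from blood through scavenger receptors, among them stabilin-2, which binds hyaluronan and chondroitin sulfates, and they pass the cargo to lysosomes. They also signal to hepatocytes through Wnt and BMP ligands. In injured liver they can take on features of ordinary capillaries, in which scavenger receptors decline and markers such as Cd34 and von Willebrand factor appear.

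In these arrays, none of the 37 endothelial genes differed between ARSB-null and control liver past an adjusted p of 0.05 in either direction (limma, Benjamini-Hochberg over all 35556 probe sets, smallest adjusted p 0.621). Over all probe sets the share past that threshold was 0.0197%. At an unadjusted p under 0.05, 6 of the 37 stood apart, 5 with more and 1 with less signal in ARSB-null liver. The share over all probe sets was 5.94% (2.75% with more and 3.19% with less). Of the 37 genes, 35 belong to the probe sets with 1 symbol and a mean above the median of all probe sets. Among those the share was 7.36% (2.65% with more and 4.71% with less). The 5 were Stab1, Ehd3, Egfl7, Ptprb and Thbd, and the 1 was Lyve1. The differences were small. The 95% interval of the fold change of every member lay between 0.658 and 1.76, so none of the intervals held a 2-fold change in either direction.

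**Figure D1:**
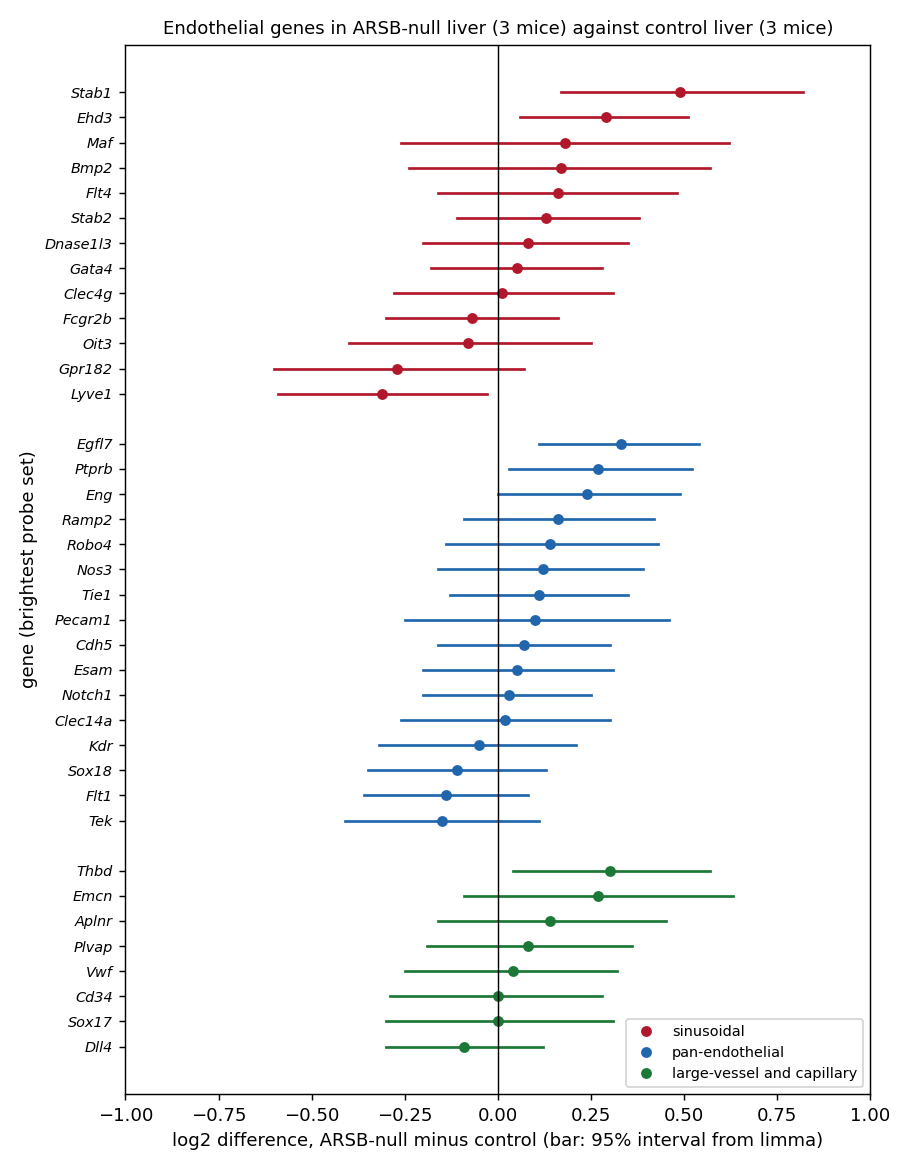
Horizontal axis, log2 difference (ARSB-null minus control liver) for the 37 endothelial genes (vertical axis) in their 3 groups, with the gene with the largest difference at the top of each group; points are the differences and bars the 95% intervals from limma. The bars of Stab1, Ehd3, Egfl7, Ptprb and Thbd lie right of 0, that of Lyve1 lies left of 0, and the others reach or cross 0.

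The values that follow are log2 signals, 1 for each mouse in the order of the numbers 4, 5 and 6 that the labels give in both groups. A difference is the ARSB-null mean minus the control mean. Signals of different genes come from different probes, and their levels are therefore not compared. As a check of the labels, Arsb itself had 7.63, 7.46 and 7.64 in ARSB-null liver and 10.21, 10.23 and 10.21 in control liver, 6.23-fold lower in ARSB-null liver (adjusted p = 0.000639 from limma). Both mice numbered 4 lay apart from the other 4 on the first principal component of the arrays (39.7% of the variance), and values without these arrays are given where they change a count.

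Of the 13 sinusoidal genes, 9 averaged more and 4 less signal in the ARSB-null livers (median log2 difference 0.075). The difference was largest for Stab1, which encodes stabilin-1, a scavenger receptor of sinusoidal endothelium and of some macrophages. Stab1 had 9.19, 9.32 and 9.55 in ARSB-null liver and 8.71, 9.02 and 8.85 in control liver. All 3 ARSB-null livers lay above all 3 controls. The means were 9.35 ± 0.18 and 8.86 ± 0.16 (SD, n = 3 each), a 1.41-fold difference (95% interval 1.13 to 1.76; log2 difference 0.49, standard error 0.14), with an adjusted p of 0.621 from limma. With 3 mice against 3, an exact two-sided permutation test cannot give a p below 0.1, the value it gives for every gene whose groups do not overlap.

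Stab2, the paralog that encodes stabilin-2, had 9.60, 9.68 and 9.78 in ARSB-null liver and 9.46, 9.62 and 9.58 in control liver. Here the groups overlapped, as the lowest ARSB-null liver lay below the highest control. The log2 difference was 0.13 (95% interval -0.11 to 0.38, adjusted p = 0.974 from limma). The intervals of Stab1 and Stab2 overlap, and whether the genes differ in response was not tested.

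Ehd3 encodes an endocytic recycling protein with an EH domain. It had 11.12, 11.13 and 11.05 in ARSB-null liver and 10.74, 10.87 and 10.84 in control liver. The groups did not overlap, and the spread within each was small (SD 0.04 in ARSB-null and 0.07 in control liver, n = 3 each). The difference was 1.22-fold (95% interval 1.05 to 1.42; log2 difference 0.29, adjusted p = 0.731 from limma).

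Promoter windows are shown for Stab1 and Ehd3, the sinusoidal genes with the largest differences upward, and for Stab2 as the paralog of Stab1. Each runs from 250 bases before to 50 bases after a RefSeq start site in GRCm38.p6, is printed 5′ to 3′, and lies at chr14:31168592-31168891 (minus strand) for Stab1, chr17:73804591-73804890 (plus strand) for Ehd3 and chr10:87007893-87008192 (minus strand) for Stab2. Capitals mark AGGAAG, a core bound by ETS factors, which control many endothelial genes, or its reverse complement CTTCCT.
Stab1: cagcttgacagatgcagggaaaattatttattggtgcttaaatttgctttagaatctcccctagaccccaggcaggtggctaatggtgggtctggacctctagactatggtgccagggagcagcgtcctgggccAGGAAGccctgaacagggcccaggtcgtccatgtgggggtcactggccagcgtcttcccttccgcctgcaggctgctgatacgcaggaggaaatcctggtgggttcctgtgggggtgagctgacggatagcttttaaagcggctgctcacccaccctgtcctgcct
Ehd3: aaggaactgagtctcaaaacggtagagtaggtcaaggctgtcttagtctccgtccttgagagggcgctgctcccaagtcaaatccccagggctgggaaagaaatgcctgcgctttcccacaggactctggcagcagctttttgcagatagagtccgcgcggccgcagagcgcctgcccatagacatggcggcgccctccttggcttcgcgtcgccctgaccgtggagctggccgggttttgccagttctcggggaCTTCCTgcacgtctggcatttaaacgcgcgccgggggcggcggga
Stab2: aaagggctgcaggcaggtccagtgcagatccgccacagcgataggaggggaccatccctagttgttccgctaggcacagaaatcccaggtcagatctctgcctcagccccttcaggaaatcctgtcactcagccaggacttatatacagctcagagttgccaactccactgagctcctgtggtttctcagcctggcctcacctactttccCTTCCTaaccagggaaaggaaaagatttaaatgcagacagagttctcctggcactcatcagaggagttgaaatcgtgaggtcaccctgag
Each of the 3 windows held 1 such match. Windows were listed for 18 of the 37 genes (20 windows, 3 of them for Egfl7), and 12 of the 20 held a match on either strand, against 35.4% of the 32851 windows of the table. The GATA core AGATAA or its reverse complement TTATCT was in 1 of the 20, that of Tek, against 11.2% of all windows. It overlapped no AGGAAG match. Stab1, which stood apart, and Stab2, which did not, were alike in both counts. A match of letters is a description of the window and no evidence of binding.

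Lyve1 encodes a hyaluronan receptor of sinusoidal and lymphatic endothelium that is also made by some resident macrophages. Its signal was 8.30, 8.04 and 8.27 in ARSB-null liver and 8.61, 8.39 and 8.55 in control liver. The groups did not overlap, and the ARSB-null livers were the lower ones (1.24-fold lower; log2 difference -0.31, 95% interval -0.59 to -0.03, adjusted p = 0.799 from limma). Gpr182, an atypical chemokine receptor of sinusoidal endothelium, had 8.47, 8.20 and 8.39 in ARSB-null liver and 8.71, 8.38 and 8.78 in control liver, with 1 control inside the range of the ARSB-null livers. Its log2 difference was -0.27 (95% interval -0.60 to 0.07, adjusted p = 0.907 from limma). With the mouse number as a block, Gpr182 joined Lyve1 below an unadjusted p of 0.05, so that 2 genes instead of 1 had less signal, against 4.15% of all probe sets in that fit; the adjusted p was 0.556 for Gpr182 and 0.486 for Lyve1.

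The C-type lectin Clec4g, which is nearly restricted to sinusoidal endothelium within the liver, had 11.74, 11.97 and 11.73 in ARSB-null liver and 11.97, 11.76 and 11.68 in control liver. The groups overlapped almost fully (log2 difference 0.01, 95% interval -0.28 to 0.31, adjusted p = 0.998 from limma), and the sign of this difference turned with the scaling of the arrays. Clec4g was the 1 gene of the list with more than 1 probe set. The dimmer one had a log2 difference of 0, rounded to 2 decimals.

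The other 7 sinusoidal genes also overlapped between the groups. The fold change was 1.12 for Flt4, the receptor for VEGF-C (95% interval 0.895 to 1.39). It was 1.05 for Dnase1l3, a secreted DNase (0.870 to 1.28), 0.947 for Oit3, a secreted protein with a zona pellucida domain (0.756 to 1.19), and 0.955 for Fcgr2b, the inhibitory Fc receptor, which clears immune complexes in the sinusoids (0.815 to 1.12). For the genes that act in differentiation and signaling, it was 1.04 for Gata4, a transcription factor that keeps the sinusoidal state in mice (0.884 to 1.21), 1.13 for the transcription factor Maf (0.836 to 1.53) and 1.12 for Bmp2, a ligand that controls hepcidin in hepatocytes (0.848 to 1.49). Maf and Bmp2 had wide intervals, with an SD of 0.29 and 0.22 among the ARSB-null livers (n = 3). These intervals leave room for moderate changes in either direction.

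**Figure D2:**
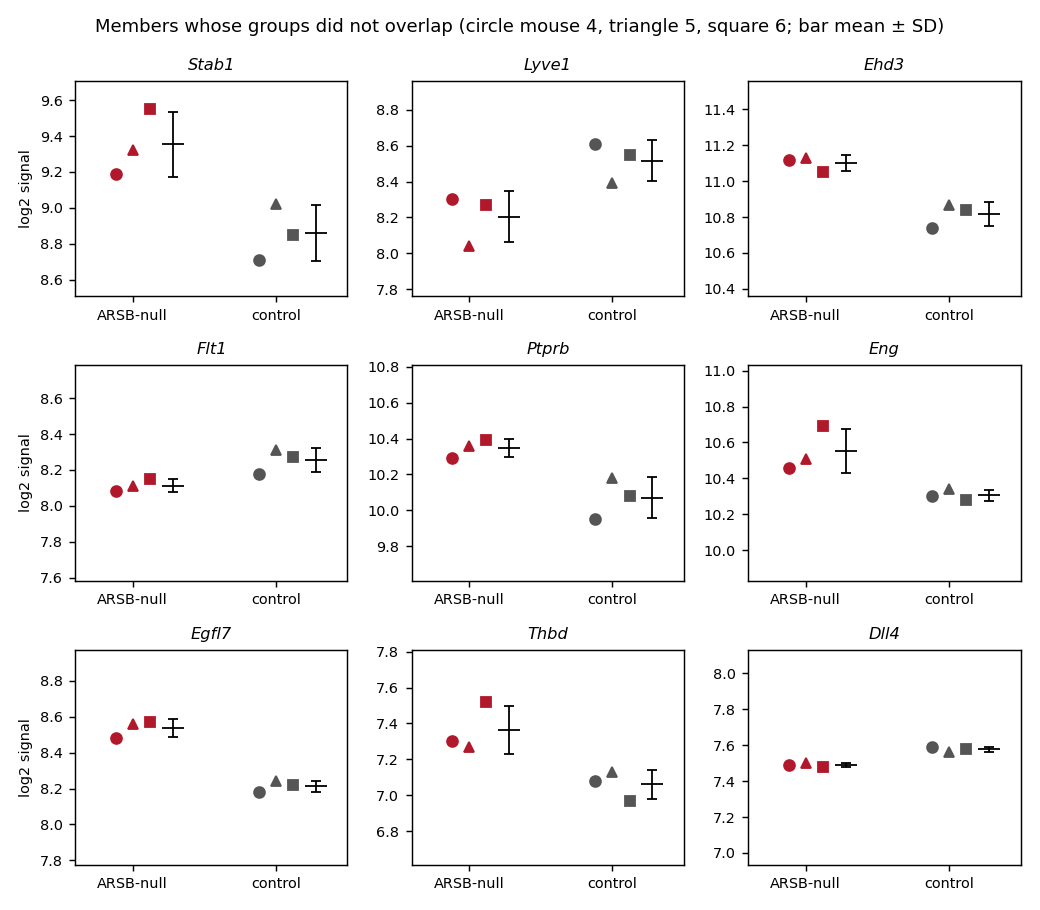
Log2 signal (vertical axis, 1.2 units in every panel) of the 9 endothelial genes whose groups did not overlap, in ARSB-null (red, left) and control (grey, right) liver; symbols mark the mouse numbers, long bars the means and error bars the SD (n = 3). Stab1, Ehd3, Ptprb, Eng, Egfl7 and Thbd lie higher, and Lyve1, Flt1 and Dll4 lower, in ARSB-null liver.

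Among the 16 pan-endothelial genes, 12 averaged more and 4 less signal in the ARSB-null livers (median log2 difference 0.085). The junction proteins by which endothelium is usually recognized did not stand apart. Pecam1 (CD31) had 7.96, 8.40 and 8.39 in ARSB-null liver and 8.02, 8.17 and 8.25 in control liver, a log2 difference of 0.10 with a 95% interval of -0.25 to 0.46 (adjusted p = 0.993 from limma). Cdh5 (VE-cadherin) had 9.85, 9.84 and 9.91 in ARSB-null liver and 9.71, 9.90 and 9.78 in control liver. Its groups overlapped, with a fold change of 1.05 (95% interval 0.893 to 1.23). Esam, an adhesion molecule of endothelial junctions, was at 1.04-fold (0.871 to 1.24) and Clec14a, an endothelial lectin, at 1.02-fold (0.837 to 1.23).

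Egfl7 had the largest difference of this group. It encodes a protein secreted by endothelium and hosts the gene of microRNA-126 in mouse. The signal was 8.48, 8.56 and 8.57 in ARSB-null liver and 8.18, 8.24 and 8.22 in control liver. The gap between the groups was wider than the spread within either, and the difference was 1.25-fold (95% interval 1.08 to 1.45; log2 difference 0.33, adjusted p = 0.621 from limma). A separate probe set for Mir126a, looked up after the values of Egfl7 had been seen, had 3.68, 4.04 and 3.83 in ARSB-null liver and 3.45, 3.57 and 3.56 in control liver. This signal lay far below the medians of the 6 arrays (6.50 to 6.60), and whether it exceeded background is unknown without detection calls, so no difference is drawn from it. Also, the array of whole transcripts does not tell the mature microRNA from its longer precursors. The mature form that RefSeq lists (GRCm38.p6, chr2:26591402-26591423, plus strand, inside Egfl7) is shown as the sequence that this transcript carries, with the seed (bases 2 to 8) in capitals.
mmu-miR-126a-3p: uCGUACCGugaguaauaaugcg

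Receptors and phosphatases of the angiopoietin and TGF-beta pathways followed. Ptprb, the endothelial phosphatase that counteracts Tie2, had 10.29, 10.36 and 10.39 in ARSB-null liver and 9.95, 10.18 and 10.08 in control liver. The groups did not overlap (1.21-fold, 95% interval 1.02 to 1.43; adjusted p = 0.800 from limma). Tek, which encodes Tie2 itself, was at 0.900-fold (0.752 to 1.08), and its relative Tie1 was at 1.08-fold (0.912 to 1.27), both with overlap. Eng (endoglin), a coreceptor for BMP ligands, had 10.46, 10.51 and 10.69 in ARSB-null liver and 10.30, 10.34 and 10.28 in control liver. These groups did not overlap either, but the interval of the fold change reached just below 1 (1.18-fold, 0.999 to 1.40; adjusted p = 0.840 from limma).

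Flt1, a VEGF receptor that also acts as a decoy, had 8.08, 8.11 and 8.15 in ARSB-null liver and 8.18, 8.31 and 8.27 in control liver. All ARSB-null livers lay below all controls, by a small margin (log2 difference -0.14, 95% interval -0.36 to 0.08, adjusted p = 0.958 from limma). Kdr, the main signaling receptor for VEGF-A, was at 0.964-fold (0.801 to 1.16) with overlap. The remaining pan-endothelial genes overlapped as well. They were Nos3, the endothelial nitric oxide synthase (1.08-fold, 0.894 to 1.31), Ramp2, a partner of the adrenomedullin receptor (1.12-fold, 0.941 to 1.33), the transcription factor Sox18 (0.928-fold, 0.785 to 1.10), the guidance receptor Robo4 (1.10-fold, 0.905 to 1.35) and the Notch receptor Notch1 (1.02-fold, 0.870 to 1.19).

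Of the 8 genes of large vessels and capillaries, 6 averaged more and 2 less signal in the ARSB-null livers (median log2 difference 0.062). The log2 differences in this group ran from -0.09 (Dll4) to 0.30 (Thbd), with Emcn at 0.27. Those of Vwf and Cd34, the markers named above for capillary features, were close to 0. The signals of both genes lay little above the medians of the 6 arrays (6.50 to 6.60). Whether they exceeded background is unknown without detection calls. Vwf (von Willebrand factor) had 7.14, 6.89 and 7.11 in ARSB-null liver and 7.15, 6.91 and 6.95 in control liver, with full overlap (log2 difference 0.04, 95% interval -0.25 to 0.32). Cd34, a sialomucin of capillary endothelium, had 7.10, 7.07 and 6.86 in ARSB-null liver and 7.01, 7.15 and 6.89 in control liver. Its fold change was 0.997 with a 95% interval of 0.819 to 1.21, and the sign of so small a difference turned when single arrays were left out, as did that of Sox17. Plvap, which forms the diaphragms of fenestrae and caveolae, was at 1.06-fold (0.874 to 1.29).

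Thbd (thrombomodulin), the endothelial cofactor for protein C activation, stood apart among the large-vessel genes. It had 7.30, 7.27 and 7.52 in ARSB-null liver and 7.08, 7.13 and 6.97 in control liver, without overlap (1.23-fold, 95% interval 1.03 to 1.48; adjusted p = 0.790 from limma). Dll4, a Notch ligand of arterial and tip cells, had 7.49, 7.50 and 7.48 in ARSB-null liver and 7.59, 7.56 and 7.58 in control liver. The ARSB-null livers were lower in all 3 mice, but the difference was only 1.06-fold (log2 difference -0.09, 95% interval -0.30 to 0.12). The spread of Dll4 among the mice was very low (SD 0.01 in each group, n = 3), so that a separate analysis of variance for this gene gave a low unadjusted p where limma, which shares the spread over all probe sets, did not (adjusted p = 0.985). Emcn (endomucin, 1.21-fold, 95% interval 0.942 to 1.54), the apelin receptor gene Aplnr (1.11-fold, 0.894 to 1.37) and the arterial transcription factor Sox17 (95% interval 0.812 to 1.24) overlapped between the groups. In every mouse, the signals of Aplnr and Sox17 lay below the median of the array. Whether they exceeded background is unknown, so no difference is drawn from Aplnr or Sox17.

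The sinusoidal, the pan-endothelial and the large-vessel genes had median log2 differences of 0.075, 0.085 and 0.062, and 27 of the 37 genes had more mean signal in ARSB-null than in control liver (23 genes with centred array medians). With 1 array left out the sinusoidal median ran from 0.023 (without the control 4) to 0.150 (without the control 5), the pan-endothelial one from 0.037 (without the ARSB-null mouse 6) to 0.109, and the large-vessel one from 0.042 to 0.131 (without the ARSB-null mouse 5). Among all probe sets with 1 symbol the median was -0.014 and 45.9% had a higher mean in ARSB-null liver. These medians are described without a test, since the genes share mice and were chosen with earlier results known. The groups of 9 of the 37 genes did not overlap, against 11.9% of all probe sets and 16.9% of the brighter ones with 1 symbol. Of these 9, 6 were higher in ARSB-null liver, against 5.14% of all probe sets and 6.34% of the brighter ones. The other 3 were lower, against 6.78% and 10.6%. Markers of hepatocytes and stellate cells had medians of similar size, whereas those of Kupffer cells and macrophages (-0.144) and of cholangiocytes (-0.045) had medians below 0. Of 10 measured hepatocyte genes 9 averaged more signal in the ARSB-null livers, with a median of 0.077, and of 12 stellate cell genes 9 did, with a median of 0.076. Their part in the endothelial values was not tested.

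**Figure D3:**
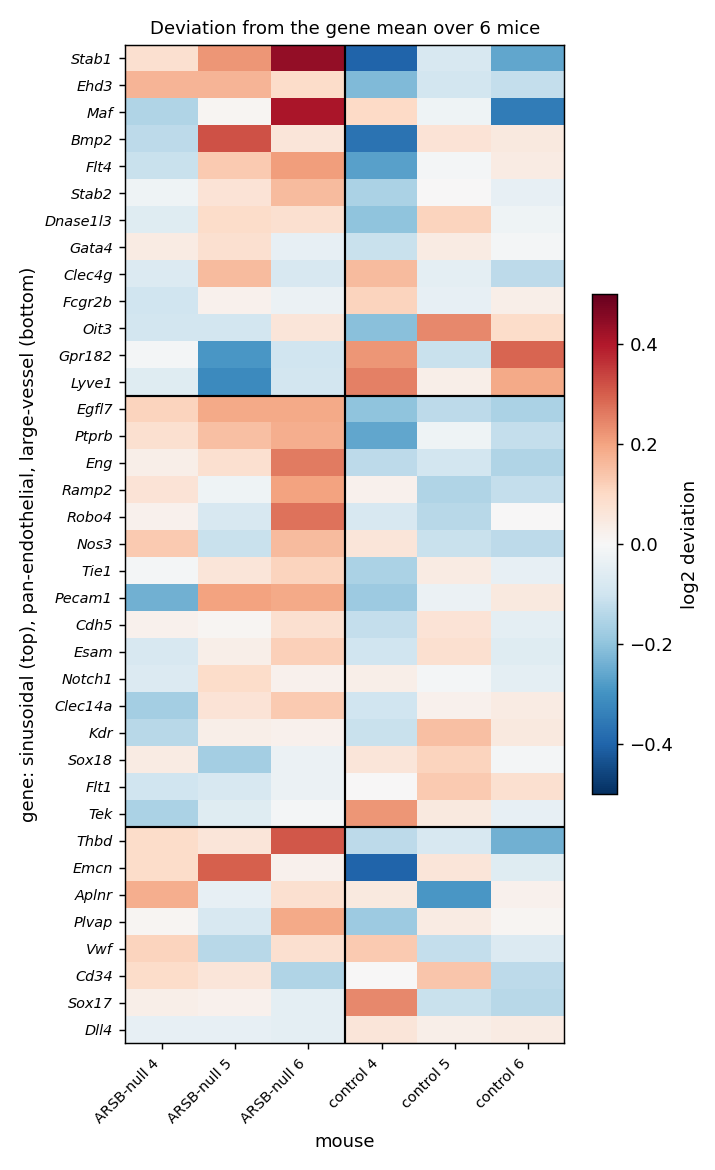
Deviation of each endothelial gene (vertical axis) from its own mean over the 6 mice (horizontal axis; ARSB-null left, control right), in log2 units by color; black lines part the groups of mice and of genes. In the control mouse numbered 4, many sinusoidal genes are blue (median deviation -0.16). Lyve1 (0.25), Gpr182 (0.22), Clec4g (0.16), Fcgr2b (0.11) and Maf (0.10) are red there.

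The genes did not move as 1 block across the mice. The median deviation of the 13 sinusoidal genes from their means over 6 mice was -0.06, 0.08 and 0.06 in the ARSB-null mice numbered 4, 5 and 6, and -0.16, -0.01 and -0.01 in the controls of the same numbers. The mouse numbered 4 was thus the lowest of both groups for sinusoidal genes. For the 16 pan-endothelial genes the median deviations were 0, 0.03 and 0.13 in ARSB-null and -0.10, 0.01 and -0.05 in control mice, and for the 8 large-vessel genes they were 0.09, -0.01 and 0.05 in ARSB-null and 0.03, -0.02 and -0.07 in control mice. Within the pairs of equal number, 15 of the 37 genes were higher and 6 were lower in the ARSB-null mouse of all 3 pairs, against 15.5% and 16.7% of all probe sets. The 6 lower genes are thus close to the share over all probe sets. Without both mice numbered 4, a setting chosen after the data were seen, only Stab1 (log2 difference 0.50) and Egfl7 (0.34) of the 37 had an unadjusted p under 0.05, against 8.46% of all probe sets under the same setting, and the difference of Lyve1 was -0.31.

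Other genes of the same cells and pathways were read from lists. Over all probe sets, 5.94% had an unadjusted p under 0.05 in limma and 11.9% had groups without overlap. Among the brighter probe sets with 1 symbol these shares were 7.36% and 16.9%. The counts below stand against these shares. Of 14 further sinusoidal genes, 12 averaged more signal in the ARSB-null livers (median log2 difference 0.123), none was past the adjusted threshold, and 2 were past an unadjusted p of 0.05 in limma. These were Fcna (ficolin A), a lectin of the complement system made by sinusoidal cells and macrophages of mouse liver, and Wnt2, a sinusoidal Wnt ligand. Fcna had 10.05, 10.03 and 10.03 in ARSB-null liver and 9.49, 9.58 and 9.45 in control liver, without overlap and with a narrow spread (log2 difference 0.53, adjusted p = 0.280 from limma). Wnt2 had 7.40, 7.41 and 7.43 in ARSB-null liver and 7.12, 7.09 and 6.92 in control liver (log2 difference 0.37, adjusted p = 0.599 from limma). Both lay in the direction of Stab1. The mannose receptor gene Mrc1 (0.19) and Adam23 (0.25) overlapped between the groups.

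Of 32 ligands, partners and targets of the VEGF, angiopoietin, Notch and BMP pathways, none was past the adjusted threshold. The list's median log2 difference was 0.044. At an unadjusted p under 0.05 in limma, 3 had more and 1 had less signal in ARSB-null liver (12.5% of the list, against 5.94% of all probe sets). The 3 were targets of BMP or TGF-beta signals in many cell types, namely the inhibitor Smad7 and the transcription regulators Id1 and Id3. Smad6, another such target in the list, overlapped between the groups (log2 difference -0.04). Smad7 had 8.57, 8.70 and 8.71 in ARSB-null liver and 7.76, 8.09 and 8.01 in control liver (log2 difference 0.71, adjusted p = 0.271 from limma). Id1 had 7.38, 7.89 and 7.35 in ARSB-null liver and 6.92, 6.97 and 6.96 in control liver (log2 difference 0.59, adjusted p = 0.604 from limma). Id3 had 8.62, 9.57 and 8.79 in ARSB-null liver and 8.34, 8.54 and 8.35 in control liver (log2 difference 0.58, adjusted p = 0.837 from limma). Id1 and Id3 were both highest in the ARSB-null mouse numbered 5. The BMP ligands Bmp6 (0.16), Gdf2 (0.19) and Bmp10 (0.29), like Bmp2 among the members, did not pass any p threshold. The groups of Gdf2 did not overlap (8.43, 8.46 and 8.47 in ARSB-null and 8.18, 8.35 and 8.27 in control liver), as for 11.9% of all probe sets. Nrp1 (neuropilin-1), a coreceptor for VEGF, had 10.07, 10.27 and 10.01 in ARSB-null liver and 10.54, 10.64 and 10.55 in control liver, lower in every ARSB-null mouse (log2 difference -0.46, adjusted p = 0.501 from limma).

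Basement membrane and caveolar genes, which come up when sinusoids turn into capillaries, gave 0 of 13 past the adjusted threshold. Past an unadjusted p of 0.05 in limma there was 1 gene (7.69%, close to the 5.94% of all probe sets). That gene was Cav1 (caveolin-1), with 7.29, 6.86 and 6.51 in ARSB-null liver and 7.45, 7.58 and 7.42 in control liver (log2 difference -0.60, adjusted p = 0.731 from limma). The groups of Cav1 did not overlap. The next smallest unadjusted p values were those of 3 genes with more signal in ARSB-null liver, also without overlap. With Cav1 these make 30.8% of the list, against 11.9% of all probe sets. Cavin1, which encodes a coat protein of caveolae, had 8.11, 7.79 and 7.80 in ARSB-null liver and 7.73, 7.62 and 7.22 in control liver (log2 difference 0.38, unadjusted p = 0.0563 and adjusted p = 0.843 from limma). Lamb2, a laminin chain, had a log2 difference of 0.24 (unadjusted p = 0.0572 from limma), and so had Hspg2, which encodes perlecan (unadjusted p = 0.0761 from limma). Of the 13 genes, 7 averaged more and 6 less signal in the ARSB-null livers (median log2 difference 0.035). The collagen genes Col4a1 (0.04) and Col4a2 (-0.02) had differences close to 0. Of 10 arterial and venous genes, none was past the adjusted threshold. Gja4 (connexin 37, log2 difference 0.26) and Adgrg6 (0.23) were past an unadjusted p of 0.05 in limma (20% of the list, against 5.94% of all probe sets). Of 4 measured lymphatic genes, Itga9 had a log2 difference of 0.40 and Mmrn1 one of -0.62 (adjusted p 0.647 and 0.511 from limma). The signals of Mmrn1 (4.34 to 5.39) lay below the medians of the 6 arrays (6.50 to 6.60). Whether they exceeded background is unknown, so no difference is drawn from Mmrn1.

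Among 8 measured genes of endothelial adhesion, 1 was past the adjusted threshold, Vcam1, which macrophages make as well. It had 9.51, 9.44 and 9.57 in ARSB-null liver and 7.90, 8.27 and 7.94 in control liver (2.78-fold, adjusted p = 0.0487 from limma), and this call was lost with the mouse number as a block (adjusted p = 0.195) and without any 1 of the 6 arrays (0.0510 to 0.376). The other 7 had log2 differences from -0.30 (Edn1, the endothelin-1 gene) to 0.17 (Icam2), and none of them had an unadjusted p under 0.05 in limma. The signals of Edn1 (5.27 to 6.09) lay below the medians of the 6 arrays (6.50 to 6.60), so no difference is drawn from Edn1. Icam1, a partner of Vcam1 in leukocyte adhesion, was at 0.04.

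**Figure D4:**
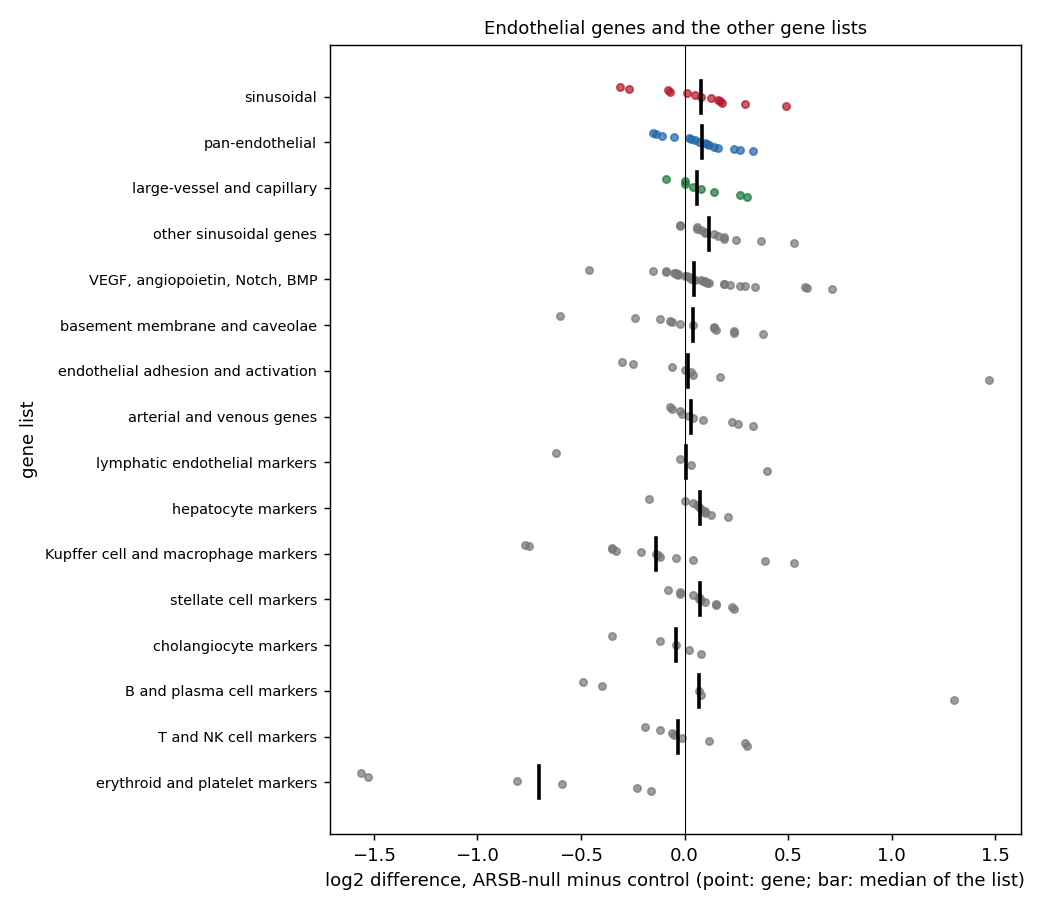
Horizontal axis, log2 difference (ARSB-null minus control liver) for the genes of each list (vertical axis); points are genes and black bars the list medians, with the 3 groups of endothelial genes in color at the top. The endothelial medians lie between 0.062 and 0.085, next to those of hepatocyte (0.077) and stellate cell genes (0.076), that of Kupffer cell and macrophage genes lies below 0 (-0.144), and the erythroid and platelet genes lie lowest (median -0.697).

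Some members are also made by other cells of the liver, and markers of these cells differed between the groups. Stab1, Lyve1 and Fcgr2b can come from macrophages. Of 13 markers of Kupffer cells and macrophages, 3 averaged more and 10 less signal in the ARSB-null livers (median log2 difference -0.144). At an unadjusted p under 0.05 in limma, 2 were higher and 4 lower (46.2% of the list, against 5.94% of all probe sets), and 0 were past the adjusted threshold. The mean signal of that list ranged from 8.90 to 8.99 over the ARSB-null mice and from 8.90 to 9.23 over the controls. The median of the list had the sign of Lyve1, but its genes were split. On the side of Stab1, without overlap, lay Cd68 (log2 difference 0.53) and C1qa (0.39). C1qb (-0.13) and C1qc (-0.14) of the same list lay on the other side, with overlap. On the side of Lyve1 lay Cd163 (-0.77) and Folr2 (-0.75), without overlap, and Adgre1 (-0.35) and Csf1r (-0.33), with overlap. The list therefore gives no single direction to set against Stab1 or Lyve1, and the part of macrophages in either gene was not tested. Of 6 measured genes of red cells and platelets, all 6 had a lower mean in ARSB-null liver (mean signal 7.37 to 7.66 in ARSB-null and 8.01 to 8.44 in control mice). Among them were Slc4a1 (log2 difference -1.56) and Ppbp (-1.53). At an unadjusted p under 0.05 in limma, 4 were lower (66.7%, against 5.94% of all probe sets), and 0 were past the adjusted threshold. The groups of 5 did not overlap (83.3%, against 11.9% of all probe sets). The 5 cholangiocyte, 5 B and plasma cell and 8 T and NK cell genes measured had medians of -0.045, 0.067 and -0.032, with 0 past the adjusted threshold. Past an unadjusted p of 0.05 in limma were 1, 3 and 0 (20%, 60% and 0%, against 5.94% of all probe sets). The 3 B and plasma cell genes were split, with Jchain higher (log2 difference 1.30, adjusted p = 0.099 from limma) and Cd79a (-0.40) and Ms4a1 (-0.49) lower. All 3 had signals below the array medians (6.50 to 6.60). The part of these cell types in the endothelial values was not tested.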

How the data were processed

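Total RNA from the liver of 3 ARSB-null and 3 control mice was labeled and hybridized by the authors to mouse gene arrays, 1 per mouse. The deposited values are log2 signals, which the authors normalized by quantiles and summarized to 1 value per probe set (RMA and Partek are named in the submitters' processing notes; no version, probe set library or genome build is given in the sources read). Quantile normalization can hide a change shared by most genes. No detection calls were used, and the number of arrays limits the precision.

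Gene symbols came from GEO's annotation of the platform: of 35556 probe sets, 21789 had 1 symbol, 1621 several and 12146 none listed; 0 symbols changed on update through RefSeq (GRCm38.p6). All 35556 were tested with limma (version 3.58.1, R 4.3.3; lmFit, eBayes, two-sided, Benjamini-Hochberg, threshold 0.05, 95% intervals). The paper's methods name an analysis of variance, run here as an alternative. The procedure was tested on simulated data.

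The members and gene lists were chosen with earlier results of these data known. All measured members are named, with values per mouse for those without overlap between groups or with an unadjusted p under 0.05, and for Stab2, Clec4g, Lyve1, Pecam1, Cdh5, Vwf and Cd34; of other lists, up to 4 genes with the smallest p. Other genes named, Gpr182 by mouse included, were chosen after their values were seen. Deviations from group means correlated between mice of equal number at 0.396, 0.159 and 0.193 (numbers 4, 5 and 6), above the 0.1 taken as pairing; what the numbers share is not labeled, and the ARSB-null mouse 6 correlated more with control 5 (0.220). Separate animals are labeled, so p-values measure the spread between mice.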

Additional observations from a re-analysis of the deposited data

How the results depend on the processing

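No member passed an adjusted p of 0.05 under any alternative run, nor an adjusted p of 0.10; the smallest adjusted p of a member was 0.223, for Stab1 with array weights. Stab1 and Egfl7 were past an unadjusted p of 0.05 under every alternative. The share of all probe sets at that threshold moved with the setting and is given in parentheses. Against 5 members with more and 1 with less signal (5.94%), the one-way ANOVA gave 6 and 3, Flt1 and Dll4 with Lyve1 (6.56%), the replicate block for paired mice 5 and 2, Gpr182 with Lyve1 (8.57%), with no other call changed, array weights 6 and 2 (10.8%), centring on array medians 3 and 1 (6.14%), quantile normalization repeated 6 and 0 (6.40%), and leaving out both arrays numbered 4, chosen after the data were seen, 2 and 0 (8.46%). With any 1 array left out there were 3 to 6 with more and 0 to 2 with less signal (4.45% to 8.05%); Lyve1 was lost without the ARSB-null mouse numbered 5 or 6 or the control numbered 4 or 6, and 3 remained with more signal without the ARSB-null mouse 5 or 6 or the control 6. The median log2 difference over all members stayed between 0.043 and 0.109. That of the large-vessel genes was 0.042 to 0.131 with each array left out, highest without the ARSB-null mouse 5 (0.131) and the control 4 (0.120), that of the sinusoidal genes was 0.023 without the control 4 and 0.150 without the control 5, and that of the pan-endothelial genes was 0.037 without the ARSB-null mouse 6 and 0.042 without the control 4. Differences near 0 changed sign in 28 of 590 values, none of them called. With array medians centred these were Clec4g (-0.02), Notch1 (-0.01), Clec14a (-0.01) and Sox17 (-0.03), with quantile normalization repeated Clec4g (-0.01), Clec14a (-0.01) and Sox17 (-0.03), with array weights Cd34 (0.03), and without both arrays numbered 4 Fcgr2b (0 after rounding). With 1 array left out they were Clec4g (-0.07 to 0.10), Notch1 (-0.01 to 0.07), Clec14a (-0.04 to 0.11), Vwf (-0.01 to 0.12), Dnase1l3 (-0.01 to 0.15), Oit3 (-0.20 to 0.02), Kdr (-0.12 to 0.01), Cd34 (-0.07 to 0.07) and Sox17 (-0.06 to 0.13). The causes were not tested. Without detection calls, the signal over background of these probe sets is unknown.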
